A study of Mus musculus with 8 samples.

Results

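Long intergenic noncoding RNAs were followed in the olfactory bulb through the 16251 array probes that the array's annotation calls lincRNA in their gene name, systematic name or description. They were 29.2% of the 55681 noncontrol probes, and no measured value was used to choose them. The probes are 60 bases long and belong to 4622 loci, each a strand of a genomic interval in the mm9 build of the mouse genome, with 1 to 10 probes per locus (median 3). The 3555 intervals are those of the array's design. Some overlap, and they merge to 2231 irrespective of strand, so several loci can cover 1 transcript. Of the 16133 probes with a mapped position, all lay on the strand given in the name of their locus, and 16125 lay inside its interval. No probe of the set was annotated to chromosome Y.

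The 4 groups consisted of male C57BL/6J mice that were 56 days old. C-C mice were reared in standard cages and breathed clean air, and C-DE mice were reared likewise and inhaled diesel exhaust at 90 µg/m3 for 8 hours daily on 28 days (postnatal days 28 to 55). EE-C and EE-DE mice had clean air or the same exhaust and were reared with environmental enrichment, which began with the pregnant dam at gestational day 14 and gave a larger cage with a running wheel, a house, blocks and tubes. Per the protocol, each group kept its kind of housing in the exposure chambers, although the groups are defined by the housing up to postnatal day 28. Per the methods, bulb RNA of 9 mice made up the EE-DE pool, of 8 the EE-C pool and of 7 each of the standard-cage pools, and each pool was hybridized to 2 one-colour arrays. There was thus no replication between mice, no test was possible and every difference below describes these pools. All arrays shared 1 slide, with the standard-cage pools in its first column and the enriched pools in the second, so rearing and slide column cannot be told apart.

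LincRNAs are transcripts longer than small regulatory RNAs, made from DNA between protein-coding genes, often spliced and polyadenylated but without a long reading frame. Most are scarce, and many are restricted to a tissue or a cell type, the brain being rich in them. A few are abundant structural or regulatory RNAs, such as Malat1 in nuclear speckles, Neat1, which builds paraspeckles, and Xist, which coats the inactive X chromosome of female cells.

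A level is the log2 signal of a probe minus the log2 of the 75th percentile of its array, so 0 is the signal below which 75% of the noncontrol spots lie. Because a probe's brightness also depends on its own sequence, levels of different probes are given only as distributions or as a list of the brightest. The sequences that carry the results are printed from 5′ to 3′ as the array holds them. The first set shows the brightest locus, chr19:5801802-5802597 on the reverse strand inside the interval that the array names NEAT2, another name of Malat1, with its 3 probes named by their lowest mm9 coordinate.
Malat1 interval, 5802130: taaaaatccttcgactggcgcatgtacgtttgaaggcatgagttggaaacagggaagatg
Malat1 interval, 5802267: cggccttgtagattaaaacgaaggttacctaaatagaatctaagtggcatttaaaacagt
Malat1 interval, 5802191: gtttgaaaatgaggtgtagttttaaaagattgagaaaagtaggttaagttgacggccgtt
The next 3 probes in brightness among the loci are shown because they differ in kind. The chromosome 14 probe has a GC content of 83.3%, the chromosome 17 probe holds AATAAA, the letters of the common polyadenylation signal, in capitals, and the chromosome 7 probe had no mapped position.
chr14:78924115-78938125 forward: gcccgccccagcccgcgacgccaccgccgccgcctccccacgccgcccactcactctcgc
chr17:17481706-17482457 reverse: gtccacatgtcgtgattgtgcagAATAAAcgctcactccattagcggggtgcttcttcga
chr7:108209996-108216032 reverse: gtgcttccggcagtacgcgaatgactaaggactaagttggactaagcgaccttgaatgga
Probes at which pools differed follow, chosen to show a graded locus, an overlapping pair and single probes. The first 4 come from 1 reverse-strand locus near the proteasome gene Psma3, chr12:72103832-72116875, listed from its 3′ end by their lowest coordinate, the fourth of which stayed under 1.5-fold in C-DE/C-C.
Psma3 locus, 72107634: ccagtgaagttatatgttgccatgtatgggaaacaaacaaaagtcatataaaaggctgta
Psma3 locus, 72107756: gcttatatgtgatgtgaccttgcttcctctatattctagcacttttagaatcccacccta
Psma3 locus, 72108177: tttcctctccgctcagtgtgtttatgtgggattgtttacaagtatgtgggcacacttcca
Psma3 locus, 72108237: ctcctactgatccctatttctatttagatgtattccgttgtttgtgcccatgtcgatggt
The next 4 come from chr5:74487385-74497428, an interval probed on both strands that holds the transcript 2700023E23Rik. In the 2 reverse-strand probes, capitals mark the 49 bases that they share. The forward probe 74489543 stayed under 1.5-fold in EE-DE/C-DE and is shown for its place.
Chromosome 5 reverse, 74489547: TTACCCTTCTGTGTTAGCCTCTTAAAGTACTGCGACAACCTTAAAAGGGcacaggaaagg
Chromosome 5 reverse, 74489558: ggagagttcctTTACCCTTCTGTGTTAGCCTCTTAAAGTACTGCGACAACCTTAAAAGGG
Chromosome 5 forward, 74489543: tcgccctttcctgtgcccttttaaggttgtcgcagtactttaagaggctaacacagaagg
Chromosome 5 forward, 74489603: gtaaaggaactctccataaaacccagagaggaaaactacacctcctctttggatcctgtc
The last pair are single probes that differed from C-C in more than 1 comparison, 1 on the strand opposite to the microRNA host gene Mirg and 1 among the brightest of all lincRNA probes.
chr12:110944403-110988678 reverse: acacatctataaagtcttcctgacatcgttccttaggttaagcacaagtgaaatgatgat
chr2:108456668-108532418 reverse: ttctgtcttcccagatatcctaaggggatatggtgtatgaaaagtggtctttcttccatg

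Most lincRNA probes were not seen on every array. Feature Extraction flagged 5579 of the 16251 probes (34.3%) as well above background on all 8 arrays, against 68.2% of the probes named by a GenBank or RefSeq accession. Another 5827 probes (35.9%) reached this on no array, and 4845 on 1 to 7 arrays. By array the share was 52.1% to 55.8%, apart from EE-DE array 1 with 34.8%. Its lowest level called well above background was −4.71 instead of −6.29 to −5.97. Without that array, 7561 probes qualified, since 1982 probes missed the criterion there alone. No lincRNA spot was saturated. After 9 probes with an outlier flag were left out, 5570 probes remained, called detected from here on. They covered 2610 loci (56.5%), and 852 loci had at least 3 of them.

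The detected lincRNA probes were dim. Their median level was −2.57, against 0.00 for detected accession probes, and 804 of them (14.4%) had a level of 0 or above, against 50.0% of the accession probes. The other lincRNA probes were 2566 (46.1%) between −3 and 0 and 2200 (39.5%) below −3. The limits −3 and 0 were chosen after the data were seen. GC-rich probes were detected more often, with 19.5% of probes below 35% GC and 48.6% of those at or above 55% GC.

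**Figure D1:**
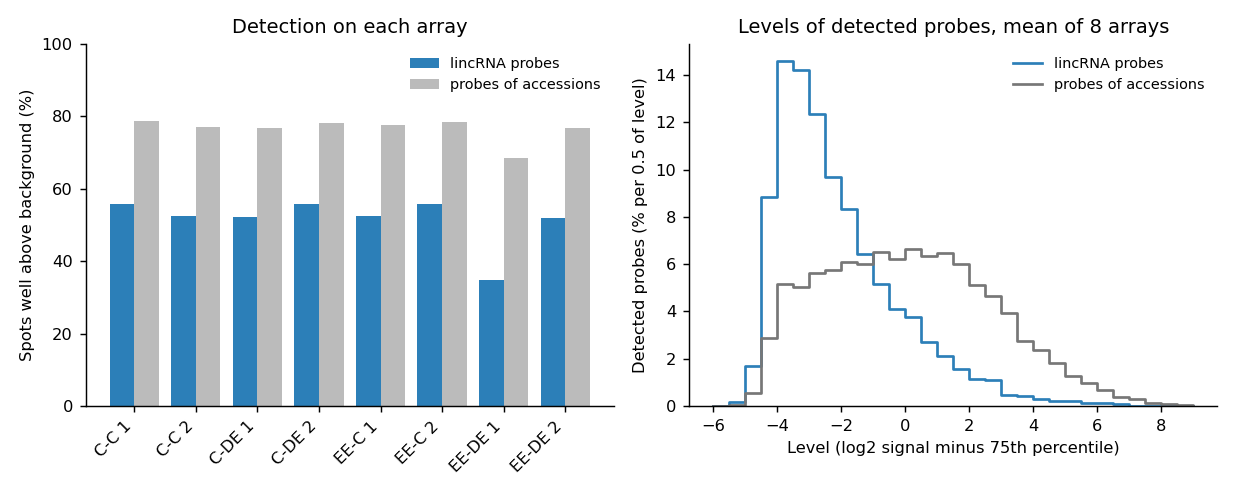
The left panel shows the percentage of lincRNA probes and of accession probes well above background on each of the 8 arrays, and the right panel the distribution of levels (log2 signal minus the 75th percentile, mean of 8 arrays) of detected probes. The first EE-DE array stands at 34.8% for lincRNA probes, below 52.1% to 55.8% on the other 7, and the lincRNA levels lie to the left of the accession levels.

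The brightest locus was the reverse-strand interval within Malat1 whose probes are printed above. Its brightest probe had a level of 8.40, and its arrays lay between 8.28 and 8.60. The other 9 of the 10 brightest loci had levels of 6.06 to 7.08. In order they were chr14:78924115-78938125 forward (7.08), chr17:17481706-17482457 reverse (6.77), chr7:108209996-108216032 reverse (6.68), chr6:116092274-116144199 forward (6.57), chr12:73838608-73862621 reverse (6.50), chr2:156213798-156216885 reverse (6.35), chr11:22681800-22707775 reverse (6.34), chr17:39982023-39983277 forward (6.12) and chr6:83368261-83407280 forward (6.06). In none of these 10 did the pools differ by 1.5-fold in any comparison, and neighbours in the order whose levels lie within 0.1 of each other overlapped in their array values. An accession probe on the same strand lay inside 3 of the 10 intervals, those on chromosome 12, on chromosome 2 and at chr6:83368261-83407280, where the nearest such genes were 5033425G24Rik, 2900097C17Rik and B230319C09Rik. At chr17:39982023-39983277 the accession probe of BC031453, on the same strand, lay 0.003 kb from the brightest probe but not wholly inside the interval. Its level was 5.46. The letters AATAAA stood in 3.92% of all lincRNA probes and in 7.96% of those detected at a level of 0 or above. Read on the other strand, as TTTATT, they stood in 3.03% and 4.85%.

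Of the loci, 12 carry the name of a known RNA instead of coordinates. All probes were detected for BRN1-A, a transcript beside the neural transcription factor gene Brn1 (4 of 4), for NEAT1 (5 of 5), for TUG1, an RNA first described in the developing retina (5 of 5), and for NEAT2 (3 of 3). The 17 probes of these 4 RNAs varied little between arrays. The brightest BRN1-A probe had levels of 2.92 to 3.08, the brightest NEAT1 probe 1.30 to 1.67, the brightest TUG1 probe 1.08 to 1.18 and the brightest NEAT2 probe 0.78 to 1.08. The brightest locus lies inside the NEAT2 interval, but its 3 probes, at 6.01, 6.92 and 8.40, are not among those named NEAT2. KCNQ1ot1 (levels −1.88 to −1.41 for its brightest probe), an imprinted RNA, had 2 of 5 probes detected, and so had NRON (−2.11 to −1.96), a repressor of NFAT transport, and the imprinted growth-related RNA H19 (−3.41 to −2.59). The probe of the annotated Kcnq1ot1 gene lay on the opposite strand to the locus named KCNQ1ot1. PINC and HOTAIR, an RNA of the HoxC cluster, each had 1 of 5 detected, at −3.14 to −2.31 and −3.48 to −2.76. None of the 5 probes was detected for XIST, for its antisense partner TSIX or for lincP21, an RNA of the p53 response. XIST and TSIX were well above background on no array, in pools of males, and lincP21 on 1 array with 1 probe.

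**Figure D2:**
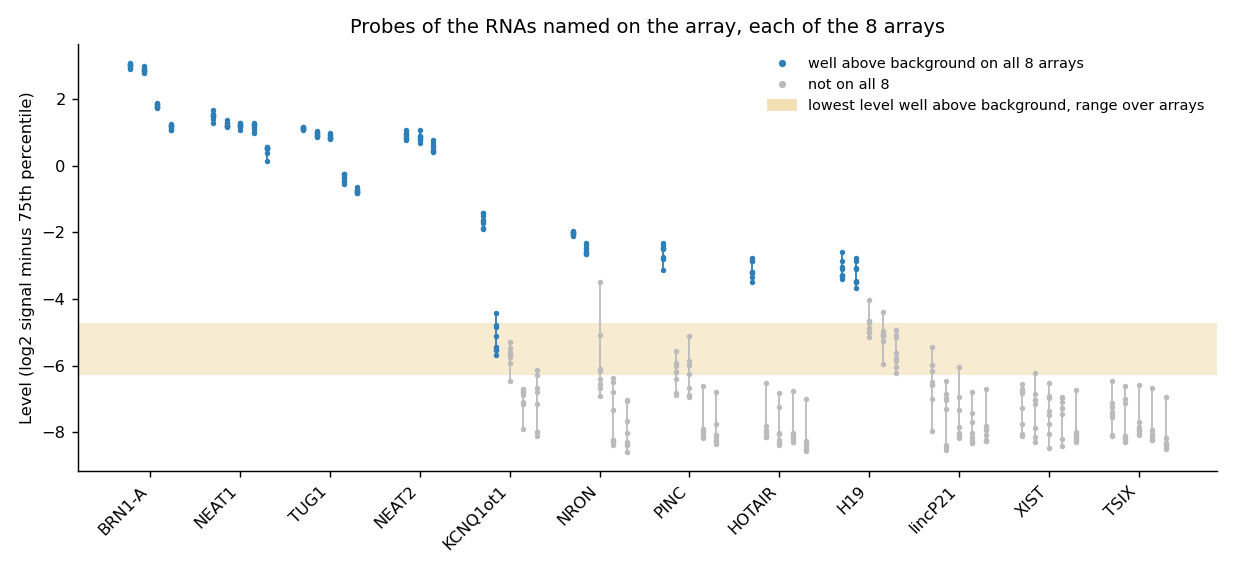
Each column is an RNA named on the array, each vertical line one of its probes, and each dot the level of that probe on 1 of the 8 arrays (log2 signal minus the 75th percentile); blue probes are detected on all 8 arrays, grey probes are not, and the band spans the lowest level well above background on each array. BRN1-A, NEAT1, TUG1 and NEAT2 lie above the band with every probe, and XIST and TSIX lie below it or within it with every probe.

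Of 37 known noncoding RNA genes listed for this tissue, 23 had an accession probe of their own on the array, and for 10 of them this probe fell inside a lincRNA interval of the same strand. Of the 21 loci concerned, 19 had a detected probe. Mirg, the host of an imprinted microRNA cluster, had 10 of 10 probes detected in chr12:110944403-110988678 forward, the brightest at −0.16 to 0.21 on the 8 arrays. Pvt1, a neighbour of Myc, had 6 of 7 in chr15:61984389-62102500 forward with a level of 0.18 for the brightest. C130071C03Rik, near Mef2c, had 2 of 2 in chr13:83860985-84012285 forward, the brightest at 0.98 to 1.12. The loci without a detected probe were both those of Snhg3, a snoRNA host, with 1 probe each. In one probe of Tug1, in chr11:3542140-3546888 reverse, the first C-DE array stood at 1.64 and the other 7 at −0.55 to −0.26.

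Both strands were probed in 1067 intervals. A probe was detected on both strands in 428 (40.1%), on 1 strand in 465 (43.6%) and on neither in 174 (16.3%). As a check of the annotation, the strand given by the array matched the RefSeq strand for 99.6% of 18972 probes with an mRNA accession. The largest strand difference was at chr3:146629425-146649125, where the brightest forward probe had levels of 4.28 to 4.51 and the brightest reverse probe −5.15 to −4.41. At chr14:78924115-78938125 the forward probe printed above had a level of 7.08 and the brightest reverse probe −1.46 to −0.72. The interval with the brightest weaker strand was chr12:73838608-73862621, at 5.79 to 6.12 on the forward and 6.34 to 6.65 on the reverse strand. These are signals of different probes, so they order neither strand by amount.

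Loci with an accession probe inside were detected more often. At least 1 probe was detected in 67.0% of the 678 loci with an accession probe on their own strand, in 60.3% of the 363 with one on the opposite strand alone and in 54.1% of the 3581 with none. Per probe the shares were 47.1%, 26.7% and 32.8%. The median interval lengths of these classes were 18588, 22276 and 7829 bases, so the classes also differ in length. Differences between pools were set against those of the nearest detected accession probe. Over 4086 pairs within 100 kb, Pearson's r of the log2 fold changes was 0.05 in C-DE/C-C and 0.04 to 0.13 over the 5 comparisons, the highest in EE-C/C-C. Within 10 kb it was 0.12 in C-DE/C-C and 0.11 to 0.23 over the comparisons for 1470 pairs on the same strand, and −0.06 and −0.08 to 0.02 for 629 pairs on opposite strands. These correlations run across probes that share the arrays and are a description.

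Before pools were compared, the 2 arrays of each pool were set against each other. Among the detected lincRNA probes, duplicates of the same RNA lay at least 1.5-fold apart in 307 probes for the EE-C pool, 232 for EE-DE, 99 for C-C and 92 for C-DE. These were 5.51%, 4.17%, 1.78% and 1.65% of them, against 2.21%, 1.34%, 0.91% and 0.77% of the other detected probes. In the same order, the SD of the difference between duplicates was 0.311, 0.290, 0.219 and 0.208 on the log2 scale, against 0.236, 0.180, 0.161 and 0.153 for accession probes. In EE-DE it was 0.393 for lincRNA probes below a level of −3 and 0.125 for those at 0 or above.

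Few lincRNA probes differed at least 1.5-fold between pools. In C-DE/C-C, which sets exhaust against clean air in standard cages, 58 of 5570 detected probes (1.04%) were called changed, against 0.717% of all 30689 detected probes. Of these, 28 were higher (all probes 0.244%) and 30 lower (all probes 0.472%), and with quantile normalization the same number split into 34 higher and 24 lower. The split was 56 and 33 without the first C-DE array, 37 and 70 without the second, 218 and 272 with the looser signal flag and 4 and 8 with normexp background correction. For exhaust against clean air in enriched mice (EE-DE/EE-C), 120 probes (2.15%) were called, against 1.23% of all probes. They were 62 higher (all probes 0.723%) and 58 lower (0.508%), but 198 and 97 without the second EE-C array, 86 and 132 without the second EE-DE array and 358 and 454 with the looser signal flag. Enrichment under clean air (EE-C/C-C) gave 88 calls (1.58%, all probes 1.04%), 37 higher (0.381%) and 51 lower (0.658%). This split rested on single arrays, since it was 60 higher and 28 lower without the first EE-C array and 59 higher and 290 lower without the second. Enrichment under exhaust (EE-DE/C-DE) gave 82 (1.47%, all probes 0.815%), 54 higher (0.626%) and 28 lower (0.189%). A probe had to be well above background on the first EE-DE array, which called no level under −4.71 so, and a probe with a lower mean in C-DE thus entered only by standing higher there. Of the called probes, 20 higher and 0 lower were of this kind, and the others were 34 higher and 28 lower. The split was 320 higher and 369 lower with the looser signal flag, 5 and 8 in the brighter 75% of all detected probes, 82 and 97 without the second EE-DE array and 124 and 83 with the first EE-DE array left out of both detection and levels. With both factors changed (EE-DE/C-C) there were 155 (2.78%, all probes 1.29%), 84 higher (0.694%) and 71 lower (0.6%). Here the split was 346 and 494 with the looser flag, 19 and 27 in the brighter probes, 100 and 161 without the second EE-DE array and 99 and 65 with quantile normalization. Such probes, with a mean under −4.71 in the clean-air pool, made up 24 of the higher and 0 of the lower calls in that comparison, and 16 and 0 against EE-C. The lincRNA share was thus above the background in each of the 5 comparisons. Among both kinds of probe the dim ones were called more often. In C-DE/C-C, 1.36% of lincRNA probes below −3 were called, against 2.34% of other probes of that class, and 0.75% of lincRNA probes at 0 or above, against 0.18% of others. In EE-DE/C-C the shares were 4.50% against 3.82% below −3 and 1.24% against 0.27% at 0 or above. At 0 or above they were 0.37% against 0.37% in EE-DE/EE-C, 0.50% against 0.45% in EE-C/C-C and 0.37% against 0.12% in EE-DE/C-DE. Below −3 they were 4.05% against 3.22%, 2.36% against 2.36% and 3.05% against 2.74% in the same order. Between −3 and 0 the EE-DE/C-DE share was 0.47% against 0.57%. The lincRNA share was thus not above that of other probes in every class of level. The comparisons share pools, so their counts are not independent.

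**Figure D3:**
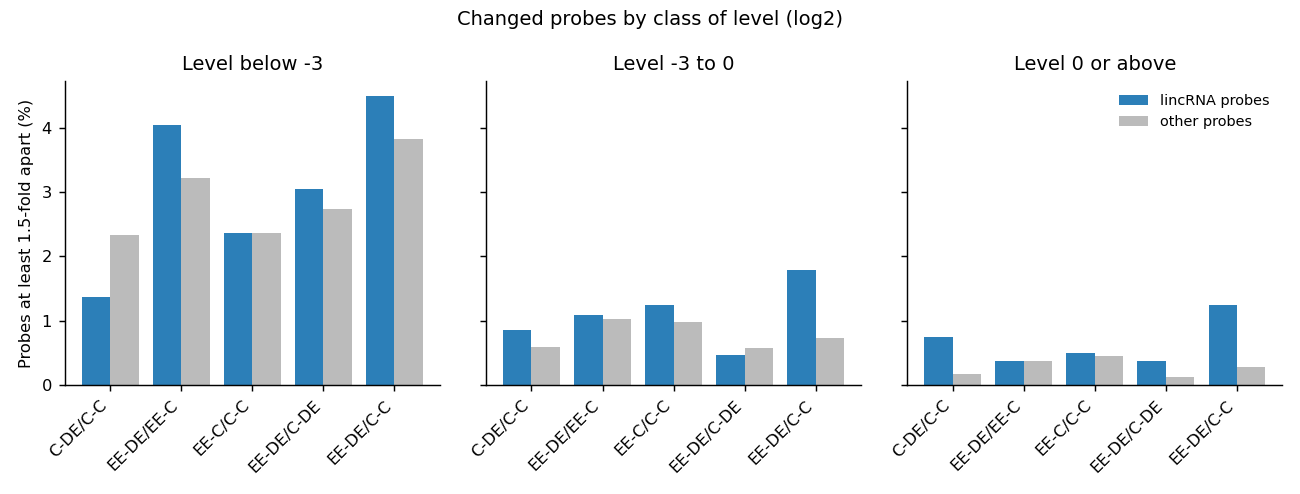
Bars give the percentage of detected probes whose pools lay at least 1.5-fold apart in each of the 5 comparisons, for lincRNA probes (blue) and all other probes (grey), in 3 panels by class of level. The shares are highest below a level of −3, where both kinds reach over 3% in both comparisons of EE-DE with a clean-air pool, and low at 0 or above.

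A stricter criterion asked for 1.5-fold in all 4 pairings of arrays from the compared pools. It left 7 lincRNA probes in C-DE/C-C (background 0.137% of all detected probes, lincRNA 0.126%), 2 in EE-C/C-C (0.0587%, lincRNA 0.0359%), 9 in EE-DE/EE-C (0.117%, lincRNA 0.162%), 7 in EE-DE/C-DE (0.179%, lincRNA 0.126%) and 23 in EE-DE/C-C (0.218%, lincRNA 0.413%). Together these were 38 different probes, 22 of them with a level below −3. No lincRNA probe met it in both exhaust comparisons, against 0.00978% of all detected probes. Without the stricter criterion, 6 lincRNA probes (0.108%) were called the same way in both exhaust comparisons, against 0.101% of all probes, and 0 in opposite ways, against 0.0847%. Of the 32 differences of named probes past the stricter criterion, 20 fell under 1.5-fold with normexp background correction, and these are given with that value where they are described.

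Among the probes past the stricter criterion, the largest difference between C-DE and C-C lay in the locus near Psma3, chr12:72103832-72116875 reverse, where all 10 probes were detected. The 3′-most probe had levels of −3.04 and −2.94 in C-C, −1.54 and −1.21 in C-DE, −2.75 and −1.64 in EE-C and −2.86 and −1.68 in EE-DE. Both C-DE arrays stood above both C-C arrays, while the arrays of each enriched pool split, the first near C-C and the second near C-DE. The difference C-DE/C-C was 1.62 on the log2 scale (1.40 to 1.84 over the 4 pairings). The gap between duplicates of the same RNA was 1.11 in EE-C and 1.18 in EE-DE. Along the locus the difference was 1.62, 1.17, 0.78 and 0.52 in the 4 probes nearest the 3′ end and −0.48 to −0.09 in the other 6. Psma3 itself, whose probe lies on the forward strand 12.2 kb away, differed by 0.04.

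**Figure D4:**
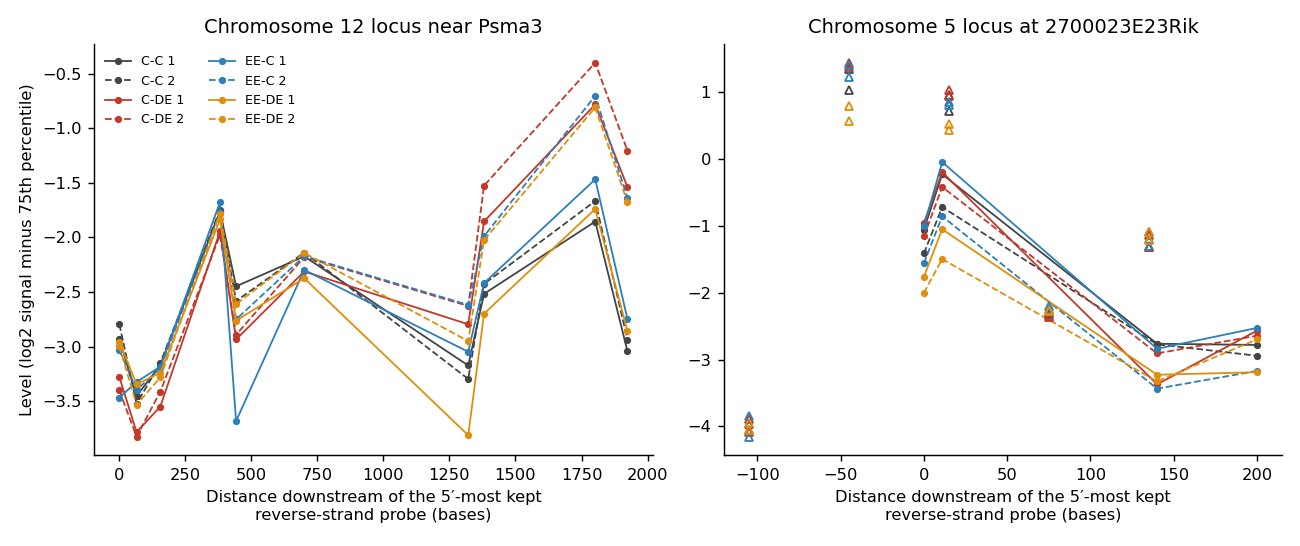
Levels (log2 signal minus the 75th percentile) of each array are plotted against the distance in bases downstream of the 5′-most detected reverse-strand probe, with colours for groups, solid lines for the first and dashed lines for the second array, and open triangles for forward-strand probes. In the chromosome 12 locus the arrays spread apart in the 4 probes nearest the 3′ end, where the second EE-C and EE-DE arrays join C-DE; in the chromosome 5 locus the EE-DE arrays lie lowest in the overlapping pair and in the forward probes at the same place.

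The other C-DE/C-C probes past the stricter criterion were each the only such probe of their locus. A probe at chr5:33773382-33776739 reverse, 0.21 kb from the homeobox gene Nkx1-1, had levels of −4.70 and −4.51 in C-C and −3.90 and −3.69 in C-DE (difference 0.81, 0.61 to 1.01, with normexp 0.39), while the locus's other detected probe differed by 0.03. The bright chr2:108456668-108532418 reverse probe had levels of 5.18 and 5.02 in C-C, 4.35 and 4.41 in C-DE, 5.06 and 4.61 in EE-C and 4.39 and 4.34 in EE-DE. Both exhaust pools lay below both clean-air pools there on every array. C-DE differed from C-C by −0.72 (−0.83 to −0.60) and EE-DE from C-C by −0.73 (−0.84 to −0.62), against −0.26 in both for the other detected probe of that locus. The probe opposite to Mirg, chr12:110944403-110988678 reverse, had levels of −2.33 and −2.54 in C-C, −3.17 and −3.22 in C-DE, −3.32 and −3.27 in EE-C and −3.43 and −3.77 in EE-DE. C-C was thus the high pool. Against it, C-DE differed by −0.76 (−0.89 to −0.63), EE-C by −0.86 (−0.99 to −0.73) and the EE-DE pool by −1.16 (−1.44 to −0.88), and these values share the C-C pool. With normexp they were −0.46, −0.58 and −0.70. The locus's 2 other detected probes differed by −0.25 to 0.14 in these comparisons. The remaining probes were at chr8:122920901-123008463 forward (−0.83, with normexp −0.50), where the locus's other detected probes differed by −0.40 to 0.65, and chr9:55786058-55797810 forward (−0.72, with normexp −0.16), the latter at a level of −4.97.

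In EE-DE/C-DE, the locus at 2700023E23Rik held 2 of the 7 probes past the stricter criterion. These are the overlapping reverse-strand probes, which are not independent of each other. Probe 74489547 had levels of −0.20 and −0.42 in C-DE, −1.05 and −1.50 in EE-DE, −0.05 and −0.86 in EE-C and −0.23 and −0.72 in C-C. The EE-DE arrays were the 2 lowest, at −0.96 (−1.30 to −0.63) against C-DE, and probe 74489558 differed by −0.82 (−1.05 to −0.60). On the forward strand, probe 74489603 had levels of 1.37 and 1.43 in C-DE and 0.79 and 0.56 in EE-DE (−0.73, −0.88 to −0.58), and probe 74489543 differed by −0.50. These 2 forward probes are complementary to the reverse pair over 4 to 56 bases. The other 8 forward probes of the interval, all detected, differed by −0.10 to 0.09, and the 2 other detected reverse probes by −0.34 and −0.14. In EE-DE/EE-C the same 4 probes differed by −0.82, −0.60, −0.64 and −0.34 in this order. The probe of 2700023E23Rik itself, on the forward strand, differed by −0.07 in EE-DE/C-DE and by 0.06 in EE-DE/EE-C.

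The other EE-DE/C-DE probes were dim. The largest was at chr19:59000015-59016865 forward, with −5.82 and −5.58 in C-DE and −3.97 and −4.96 in EE-DE (1.23, 0.62 to 1.85). Its C-DE values lay under −4.71, so detection on the first EE-DE array already required a higher value there, and the difference is only a description (0.38 with normexp background correction). The same holds for the other probe that was higher, chr6:121035216-121035648 reverse (0.83, with normexp 0.33). A probe near the kinase gene Map3k2 on chromosome 18 had −3.13 and −3.11 in C-DE and −4.21 and −4.26 in EE-DE (−1.11, −1.14 to −1.08), with C-C arrays at −2.44 and −3.73. The others were chr2:151992806-152025456 reverse (−0.80) and chr16:89961600-89971725 reverse (−0.65). With normexp these 3 stood at −0.53, −0.41 and −0.28, under 1.5-fold.

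**Figure D5:**
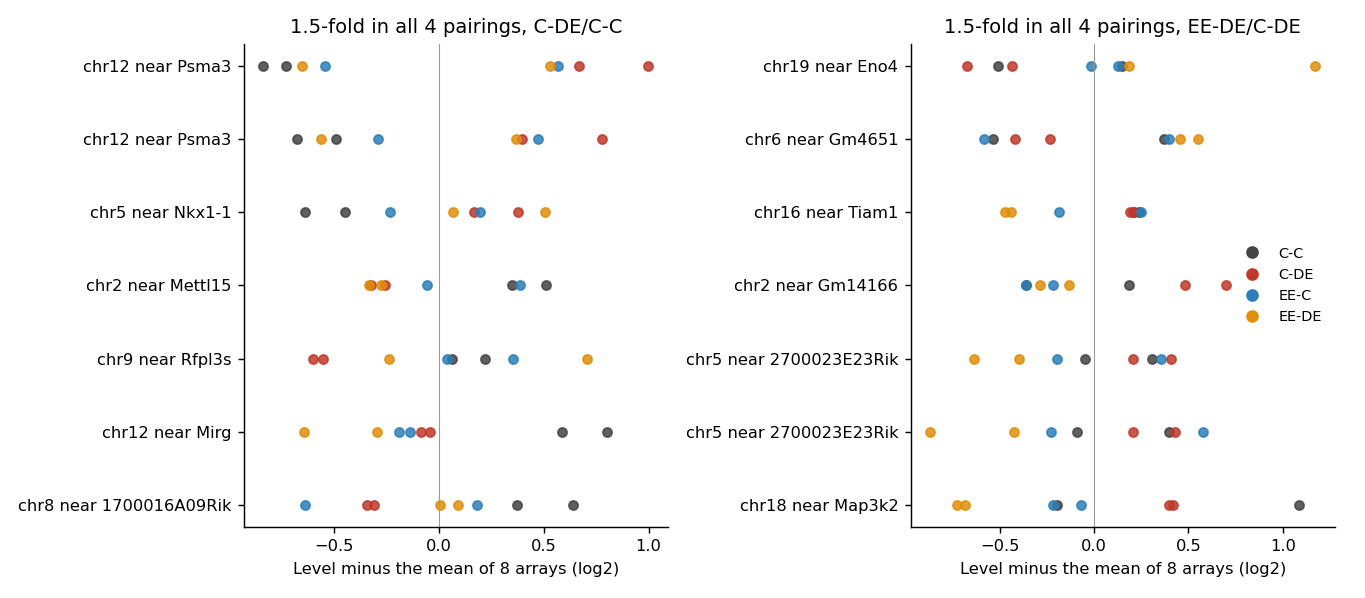
Each row is a lincRNA probe that met the stricter criterion in C-DE/C-C (left) or EE-DE/C-DE (right), named by chromosome and nearest accession gene, and each dot is the level on 1 array minus the mean of the 8 arrays (log2), coloured by group. In the chromosome 12 rows near Psma3 the EE-C and EE-DE arrays split, and in the chromosome 5 rows near 2700023E23Rik the EE-DE dots lie lowest.

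In EE-DE/EE-C, 5 of the other detected probes past the stricter criterion were higher and 22 lower. Of the 9 lincRNA probes past it, 8 were lower after exhaust, by −1.31 to −0.88. The first EE-DE array was the lowest of the 8 arrays in 7 of these 8. An example is chr16:13754656-13756647 forward, with −2.60 and −2.61 in EE-C, −3.94 and −3.45 in EE-DE, −2.78 and −2.72 in C-C and −3.43 and −3.32 in C-DE (−1.09, −1.34 to −0.84, with normexp −0.58). There both exhaust pools lay below both clean-air pools, and C-DE/C-C reached 1.5-fold as a mean but not in every pairing. The probe that was higher, chr6:86425510-86450160 forward, had −2.76 and −2.53 in EE-C and −1.88 and −1.82 in EE-DE (0.79, with normexp 0.53). In EE-C/C-C the probe besides that opposite to Mirg was chrX:20389063-20389702 forward, with −4.40 and −4.86 in C-C and −3.71 and −3.76 in EE-C (0.89, 0.64 to 1.15, with normexp 0.38). Of the EE-DE/C-C probes, 7 were higher and 16 lower, against 12 and 32 of the other detected probes. The C-C mean lay under −4.71 in 2 of the higher and 0 of the lower lincRNA probes, so detection on the first EE-DE array favoured a higher value there. The largest differences were at chr10:60473030-60535340 forward (1.24, 0.73 to 1.75, with normexp 0.46), which is 1 of these 2, and at a probe on chromosome 18 near Gm10536 (−1.53, −2.14 to −0.92). The higher probe chr7:134369091-134376468 forward had −1.23 and −1.38 in C-C and −0.47 and −0.26 in EE-DE, with C-DE and EE-C between −0.79 and −0.35 (0.94, 0.76 to 1.12).

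Among the 804 bright probes, which belong to 496 loci, 18 were called in at least 1 comparison. This set was looked at after the values were seen. They were 2.24% of the bright lincRNA probes, against 0.883% of all 13252 detected probes of that class. In 12 of the 18 no call held when each array of the compared pools was left out in turn. The other 6 (0.746% of the bright lincRNA probes) stand against 0.226% of all bright probes. At chr3:10088209-10089038 forward the first EE-C array stood at −1.14 and the other 7 at 0.14 to 0.31, at chr12:85210777-85262127 reverse it stood at 1.59 and the others at −0.08 to 0.25, and at chrX:90997595-91009570 reverse the second C-DE array stood at −1.17 and the others at 0.23 to 0.91. At chr11:95573399-95587949 forward C-C had 0.67 and 0.92 and the other 6 arrays 1.32 to 1.71, with C-DE/C-C at 0.67 and at 0.53 to 0.81 with 1 array left out. At chr14:115423660-115463160 forward, in the region of the microRNA host gene Mir17hg, C-C had 0.57 and 0.49 and EE-DE 1.10 and 1.31 (0.67, and 0.56 to 0.78 with 1 array left out), and the locus's other detected probes differed by 0.32 and 0.38. At chr13:70745306-70837331 reverse C-C had 2.32 and 2.23 and EE-DE 1.58 and 1.53 (−0.72, and −0.77 to −0.68 with 1 array left out), and the other 6 probes differed by −0.28 to 0.05.

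Probes of the same locus seldom moved together. Where a called probe had another detected probe in its locus, that other probe was called the same way in 3 of 32 cases in C-DE/C-C, 6 of 62 in EE-C/C-C, 2 of 77 in EE-DE/EE-C, 6 of 57 in EE-DE/C-DE and 4 of 90 in EE-DE/C-C. For accession probes of the same gene the counts were 8 of 23, 2 of 50, 4 of 55, 6 of 20 and 4 of 29 in this order. Over the 852 loci with at least 3 detected probes, the median of the probes passed 1.5-fold in 1 locus in EE-C/C-C and in EE-DE/C-C, and in 0 loci in the other comparisons. It was chr13:12792150-12869825 reverse, where the 3 probes differed by 0.06 to 1.06 with a median of 0.60 in EE-C/C-C and by 0.15 to 0.97 with a median of 0.69 in EE-DE/C-C. Its median levels in C-C were −5.21 and −4.70, with a mean under −4.71, so that detection on the first EE-DE array favoured a higher value there.

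Smaller shifts shared by all probes of a locus were counted next. In EE-C/C-C there were 21 loci (2.46%) in which every detected probe was lower and the median was at or below −0.4, a limit chosen after the data were seen, and in 1 locus every probe was higher with a median of at least 0.4. Among 986 genes with at least 3 detected other probes, 1 was lower (0.101%) and 1 higher in this way. Loci and genes were not matched for level. The other comparisons had 0 to 3 higher and 1 to 3 lower lincRNA loci, against 0 or 1 of the 986 genes in either direction. With 1 array left out these numbers moved too, for example to 40 higher in EE-DE/EE-C without the second EE-C array, and without the second EE-DE array to 17 lower in EE-DE/C-C and 10 lower in EE-DE/C-DE. The first EE-C array decided the number of lower loci in EE-C/C-C. Without it 1 locus met the limit, which was not among the 21, and without the second EE-C array 78 did, the 21 among them. At chr6:99472981-99484210 reverse the median levels of the 5 probes were −2.82 and −2.82 in C-C, −3.75 and −3.11 in EE-C, −3.08 and −3.29 in C-DE and −3.16 and −3.18 in EE-DE (EE-C/C-C −0.57). The 21 loci had a median GC content of 41.7%, against 45% over the 852 loci, and over all detected lincRNA probes the correlation of GC content with the EE-C/C-C difference was 0.22. The part of GC content in these differences was not tested.

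Some probes were well above background on both arrays of one pool and on neither of another, where only a bound can be given. It compares the mean of the bright pool with, for each dim array, the higher of its lowest level well above background and the probe's own level. Bounds of at least 1.5-fold numbered 31 higher and 35 lower in C-DE/C-C (0.191% and 0.215% of the lincRNA probes, against 0.122% and 0.172% of all noncontrol probes). In EE-C/C-C there were 24 higher and 24 lower (0.0952% of all probes in either direction). With EE-DE, bounds were rarer and lay mostly on the lower side, at 1 higher and 4 lower against C-DE (0.00359% and 0.0144% of all probes). Against EE-C there were 0 higher and 14 lower (all probes 0.0018% and 0.0557%), and against C-C 0 higher and 9 lower (all probes 0.00898% and 0.0395%). Few dim probes were well above background on the first EE-DE array, which had the fewest such probes of all arrays. The probe that was higher against C-DE was at chrX:50407969-50410370 reverse. It had levels of −3.68 and −3.98 in EE-DE and −6.02 to −5.58 on the other 6 arrays, and was at least 4.12-fold higher in EE-DE than in C-DE. A NRON probe that was not among those detected above had −5.09 and −3.48 in EE-C and −6.17 and −6.09 in C-C, at least 3.55-fold higher in EE-C, although its EE-C duplicates lay 1.60 apart. A probe at chr13:44217172-44224947 reverse had −3.57 and −3.73 in C-C and −4.60 and −6.30 in EE-DE, where it was not well above background on either array. Several other bounds rest on 1 array. At chr15:73455424-73477275 reverse the C-DE arrays stood at −1.50 and −5.46 and the C-C arrays at −6.54 and −6.20, a bound of 6.31-fold that the first C-DE array carries. Another is chr9:20313342-20323517 forward in EE-DE/C-C, where the C-C arrays stood at −4.94 and 1.98.

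The tissue of the pools was described with marker genes. Their lists follow what earlier results of these data showed to move with the arrays. Shared directions within a list were thus partly fixed by the choice and are no test. All 12 neuronal markers of the bulb that were on the array, among them Th, Tbx21 and Gad1, were detected, and their summed level was 7.63 to 7.68 on every array. Markers of glands and supporting cells in the olfactory mucosa, which lies outside the bulb, were also all detected (11 of 11). Their summed level was lowest in C-DE (2.33 and 2.40). The EE-DE arrays had 3.47 and 4.16, the C-C arrays 3.80 and 3.16 and the EE-C arrays 3.77 and 2.67, so these 3 pools overlapped. All 11 were lower in C-DE than in C-C (median difference −1.20), and 9 were higher and 2 lower in EE-DE than in C-DE (median 1.62). The 2 were the gland genes Bpifa6 and BC048679, for which EE-DE was the low pool. Bpifa6 had −1.44 and −0.20 in C-C, −0.63 and −3.31 in C-DE, −0.48 and 0.08 in EE-C and −3.52 and −2.78 in EE-DE. Of 10 olfactory sensory neuron markers 9 were detected, with summed levels of 6.77 to 7.08. All 10 were lower in C-DE than in C-C (median −0.29), and 9 were higher in EE-DE than in C-DE (median 0.39). Among them the channel gene Cnga4 had −1.58 and −2.15 in C-C, −2.97 and −2.66 in C-DE, −1.83 and −2.71 in EE-C and −1.80 and −1.30 in EE-DE, so 1 clean-air array reached the C-DE levels. The 3 red blood cell markers were detected, at summed levels of 5.62 to 6.15. The part of these cells in the lincRNA differences was not tested, and in pooled tissue fewer cells of a type and less RNA per cell cannot be told apart.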

How the data were processed

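Olfactory bulb RNA was measured on 8 Agilent SurePrint G3 Mouse arrays, 2 for each of the 4 pools, grouped by the sample titles. The deposited intensity values are those of Agilent Feature Extraction 10.7.3.1, which, per the file headers, subtracted background, removed spatial trends and set surrogate values for signals near background. No scaling between arrays was applied to them. The authors also deposited a table of log2 values for the series. These equal the levels used here minus each probe's median over the 8 arrays within 0.02 for all 5570 detected lincRNA probes (largest difference 0.0144), and their column medians lie between −0.01 and 0.02.

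Levels were log2(processed signal) minus the log2 75th percentile of the noncontrol spots. Detected probes had the flag for a signal well above background on every array and no outlier flag. Levels were averaged over both arrays of each pool, and a 1.5-fold difference (0.585 log2) was called changed, with its range over the 4 pairings of arrays. With 1 pool per group no p-value was computed, so signal over background and the 2 arrays per pool limit the precision.

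Loci named are the 10 brightest, up to 5 rises and 5 falls per comparison that passed 1.5-fold in all pairings, up to 3 bounds per direction, loci with the largest strand signals and known noncoding RNAs, of which examples are given. Members and lists were chosen with earlier results of these data known. Coordinates are those of the array annotation (mm9). Sequences are the array's own. RefSeq (GRCm38.p6) gave strands and symbols only.

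The calling was tested on simulated data for C-DE/C-C. Among 5570 simulated probes, 197 of the 200 given a log2 difference of 1 were called, with 27 other calls. Alternatives were normexp background correction (offset 50), quantile normalization, the series table, other filters, a 2-fold threshold, all pairings, leaving out a corner with low readings on EE-C array 1 (its bounds set from the data) and leaving out each array. Leaving out arrays for shifts of whole loci and for bright probes, and leaving the first EE-DE array out of detection, were added after seeing the data. Normalization used limma 3.58.1 in R 4.3.3, and the other steps used Python 3.11.15 (pandas 2.3.3, numpy 2.4.6), with figures by matplotlib 3.10.9.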

Additional observations from a re-analysis of the deposited data

How the results depend on the processing

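The counts of lincRNA probes called changed are given in the order C-DE/C-C, EE-C/C-C, EE-DE/EE-C, EE-DE/C-DE and EE-DE/C-C. From 58, 88, 120, 82 and 155 they went to 12, 25, 36, 16 and 43 with normexp background correction, 490, 584, 812, 689 and 840 with the looser signal flag, 20, 27, 23, 13 and 46 in the brighter 75% of all detected probes (2810 lincRNA probes, 50.4%), 7, 2, 9, 7 and 23 with 1.5-fold in all pairings and 7, 14, 32, 24 and 29 with a 2-fold threshold. The cause was not tested beyond the fewer or more probes admitted. Quantile normalization, the series table, the outlier filter and the low part of the first EE-C array (49 probes; 58, 78, 110, 80 and 153 without it) kept every count within 1.5 times. With the first EE-DE array out of detection and levels, an alternative chosen after seeing the data, EE-DE/EE-C, EE-DE/C-DE and EE-DE/C-C gave 380, 207 and 395 calls among 7547 probes. With 1 array left out, the counts ranged over 70 to 127, 88 to 349, 118 to 295, 74 to 179 and 149 to 261. The highest of each came without the second array of C-C in C-DE/C-C, of EE-C in EE-C/C-C and EE-DE/EE-C and of EE-DE in the others. Counts also moved by over 1.5 times without the first (89) and the second C-DE array in C-DE/C-C, without the second EE-DE array (218) in EE-DE/EE-C, without the second C-C array (150) in EE-C/C-C and without the first C-DE array (125) in EE-DE/C-DE. The number well above background was 8964 with the looser flag and 5579 to 7561 with 1 array left out. Intervals detected on both strands went from 428 to 763 and the median lincRNA level from −2.57 to −3.68 with the looser flag. The C-DE/C-C correlation with the nearest accession probe was 0.06 within 10 kb and 0.05 at any distance. The 32 values of named probes kept their direction in all 224 alternative values, which the criterion of all pairings fixes where an array is left out. With normexp 28 moved beyond the spread between duplicates and 20 fell under 1.5-fold. Its offset of 50 draws dim signals together by construction. No paired analysis was possible because the arrays of a number share no RNA across groups and each group is 1 pool.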

Other observations

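Over both exhaust comparisons, 249 of the 5570 detected lincRNA probes (4.47%) had opposite signs in all 4 pairings of each, against 4.29% of the other detected probes.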
